A study of Mus musculus with 6 samples.

Results

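AP-1 and the immediate early factors described here are 9 genes, Fos, Fosb, Fosl2, Jun, Junb, Jund, Egr1, Ier2 and Atf3, chosen by their symbols from the 23930 amplicon rows of the table. Each symbol matched 1 row, and 8 of the 9 genes passed the filter of a mean of at least 1 RPM (reads per 1000000 reads of the library), as did 12846 rows in all. Total RNA had been taken from the shaft of the humerus of mouse embryos at E16.5, in the last days before birth. That of 3 controls, labelled wild type with the genotype Stat3C/+, was compared with that of 3 knockouts, labelled Prrx1Cre; Stat3C/C. All 6 libraries thus came from embryos with at least 1 conditional Stat3 allele, and by the labels only the knockouts carried the Cre driver. Prrx1Cre is a driver active in limb bud mesenchyme, which gives rise to bone, cartilage, tendon and connective tissue, and not to blood cells, vessels or muscle fibres. The labels do not say whether replicates were separate embryos, so the spread between them may be partly technical. The stated purpose was to find genes that differ between the genotypes.

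AP-1 is a dimer of basic leucine zipper proteins, in which a JUN protein pairs with another JUN, a FOS or an ATF protein and binds DNA. Many of these genes, with the zinc finger factor gene Egr1 and with Ier2, are immediate early genes, which are transcribed within minutes of a signal without new protein synthesis, largely through MAP kinases and serum response factor. In bone, FOS is required for osteoclasts to form, while JUN, JUNB and FOSL2 act in osteoblasts and chondrocytes. Fos and Junb are also classic genes induced by STAT3 after IL-6 family signals.

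The libraries held 9126493 to 13376550 reads, with 16747 to 17351 amplicons read at least once. A single read was worth 0.0748 to 0.110 RPM. Each gene was measured at 1 short amplicon, whose yield differs between genes, so RPM levels are compared between groups and not between genes. For the targeted gene, the Stat3 amplicon was at 201 to 211 RPM in the controls and at 170 to 208 RPM in the knockouts. Where it sits relative to the deletion is not given, so this level checks nothing about the labels. All 9 osteoblast markers in the table and all 8 chondrocyte markers were read in these libraries. The tissue was bulk, so fewer cells of a type and less RNA per cell cannot be told apart.

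Fos, Ier2 and Jun rose in the knockout, each by less than 1.5-fold, and no tested member was called lower. The 3 higher genes were 3 of the 8 tested members, where 5.71% of all 12846 tested genes were called higher (limma on log2(RPM + 1), adjusted p under 0.05). All 8 tested members had a positive log2 fold change, from 0.09 to 0.47, with a median of 0.26. The median of all tested genes was -0.06 on the same scale. In 5 members every knockout library lay above every control, where 11.9% of all tested genes showed this. The members were chosen with earlier results of these data known, so setting them beside these shares is a description only. Lower calls made up 11.0% of all tested genes. Among the members limma, edgeR and DESeq2 each called 0 lower. Over all tested genes edgeR called 922 of 12846 lower and DESeq2 775 of 12596. With 8 tested members, 0 lower calls do not set the members apart from these shares.

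**Figure D1:**
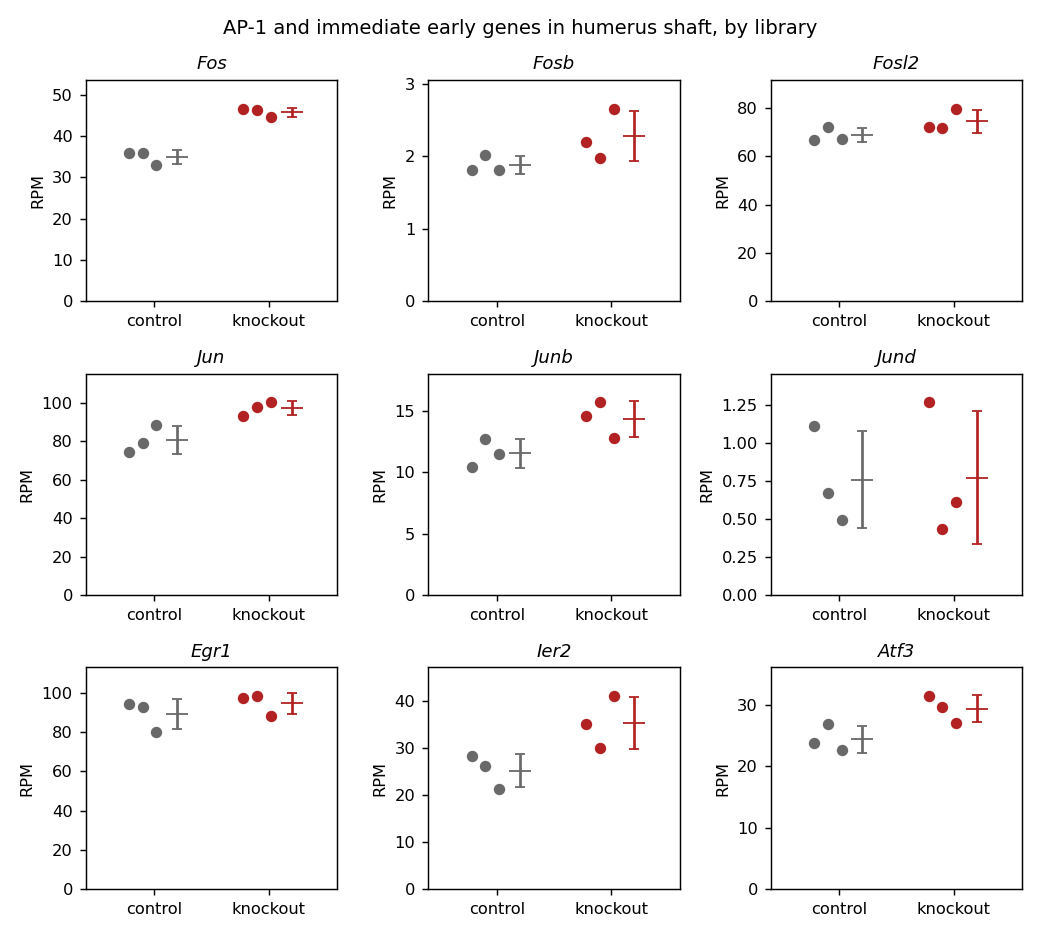
RPM of each of the 9 genes (y axis, from 0) in the 3 control (grey) and 3 knockout (red) libraries, with points for libraries in the order of their replicate numbers and bars for the mean ± SD (n = 3 each). The knockout points of Fos, Ier2, Jun, Junb and Atf3 all lie above the control points, and those of the other 4 genes overlap them.

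The promoters shown here are those of the higher genes Fos and Jun, and of Junb and Atf3, whose groups did not overlap either. They are RefSeq sequences on GRCm38.p6, 250 bases ending just before the transcript start, written 5′ to 3′ on the gene's own strand. Of the 9 genes 7 had an entry, and Ier2 and Egr1 did not. Capitals mark TGACG, the core of the site bound by CREB and ATF proteins, TATAAA, and the pair TGACATCA and TTACCTCA, which are known in Jun as sites bound by JUN and ATF2. Both strands were searched, so CGTCA is TGACG on the other strand. The Fos window is chr12:85473640-85473889 (+ strand), that of Jun chr4:95052223-95052472 (- strand), that of Junb chr8:84978749-84978998 (- strand) and that of Atf3 chr1:191183334-191183583 (- strand).
Fos: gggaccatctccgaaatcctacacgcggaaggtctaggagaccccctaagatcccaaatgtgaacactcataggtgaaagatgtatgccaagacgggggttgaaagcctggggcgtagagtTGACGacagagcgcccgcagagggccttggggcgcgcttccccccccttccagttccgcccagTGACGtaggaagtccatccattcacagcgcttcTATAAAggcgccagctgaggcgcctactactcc
Jun: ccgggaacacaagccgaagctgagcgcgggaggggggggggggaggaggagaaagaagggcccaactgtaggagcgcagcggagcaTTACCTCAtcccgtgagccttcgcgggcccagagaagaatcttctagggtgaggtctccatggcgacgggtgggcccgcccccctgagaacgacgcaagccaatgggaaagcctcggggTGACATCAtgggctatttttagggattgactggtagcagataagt
Junb: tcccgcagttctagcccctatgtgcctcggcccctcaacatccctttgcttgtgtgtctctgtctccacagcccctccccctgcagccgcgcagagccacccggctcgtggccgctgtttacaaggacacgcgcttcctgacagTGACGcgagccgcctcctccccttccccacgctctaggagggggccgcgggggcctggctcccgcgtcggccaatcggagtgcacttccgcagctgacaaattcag
Atf3: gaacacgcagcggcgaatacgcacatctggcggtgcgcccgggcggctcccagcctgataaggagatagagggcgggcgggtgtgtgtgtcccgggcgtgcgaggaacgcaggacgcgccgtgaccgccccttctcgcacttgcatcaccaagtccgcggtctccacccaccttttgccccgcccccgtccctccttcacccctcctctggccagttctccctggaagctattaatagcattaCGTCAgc

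TGACG was found in 4 of the 7 windows, those of Fos, Fosb, Junb and Atf3, and in 17.7% of 32817 mouse promoter windows of the same length. These shares are a description, and enrichment of TGACG was not tested. Fos held TGACG at 2 places, and the one nearer the start began 66 bases before it. TATAAA was in 1 of the 7, Fos, against 12.4% of all windows. TGACATCA and TTACCTCA each occurred in Jun and in no other of the 7, against 2.93% and 0.728% of all windows. Both are known sites of Jun, so their presence there was given beforehand and is no enrichment. The full palindrome TGACGTCA (1.55% of all windows), TGANTCA, the consensus AP-1 site (6.75%), TTCNNNGAA, the palindrome that STAT proteins bind (7.01%), and the CArG box of serum response factor (1.47%) were in 0 of the 7 windows. These are letter matches in short windows and do not show binding. Bases further upstream were not searched, nor were STAT sites that depart from TTCNNNGAA. The missing matches therefore do not show that Fos, Junb or the other genes lack sites for STAT proteins or serum response factor. The RefSeq start is that of the GENCODE gene for Fos and Jun, and lies 6 bases from it for Fosb and 30 bases for Junb. For Fosl2 it lies 671 bases and for Atf3 34706 bases inside the annotated gene, and for Jund 1210 bases before it.

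Among the FOS proteins, which need a JUN partner to bind DNA, only Fos passed the test. Fos (ENSMUSG00000021250.13, chromosome 12, 85473890 to 85477273, GRCm38, GENCODE M21) was at 35.9, 35.9 and 33.1 RPM in control replicates 1 to 3 and at 46.7, 46.2 and 44.6 RPM in knockout replicates 1 to 3. The 3 knockout libraries lay close together and clear of the controls. The means were 35.0 ± 1.62 and 45.8 ± 1.11 RPM (SD, n = 3 each). The log2 fold change was 0.38 ± 0.10 (SE, limma adjusted p = 0.0105). Between 403 and 551 reads stood behind each Fos value, and 4.90% of all tested genes had a greater log2 fold change.

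Fosl2 encodes FRA2, a FOS relative of osteoblasts and chondrocytes. The Fosl2 libraries were at 66.8, 72.1 and 67.3 RPM in controls and at 72.1, 71.7 and 79.8 RPM in knockouts. A single knockout library, replicate 3, lay above all controls. The log2 fold change was 0.11 with a 95% interval of -0.07 to 0.30 (limma adjusted p = 0.415). Fosb, whose spliced product ΔFOSB raises bone mass when overexpressed, was read at 1.80, 2.02 and 1.81 RPM in controls and at 2.20, 1.97 and 2.66 RPM in knockouts. These are 18 to 27 reads per library, and the interval of the log2 fold change was wide, from -0.24 to 0.60 (adjusted p = 0.579). A rise of Fosb as large as that of Fos was therefore not excluded by its interval. Fosl1 (FRA1), the FOS relative that was not a member, lay below the filter, with 0.0850 to 0.329 RPM per library.

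The JUN proteins form the other side of the dimer. Jun (ENSMUSG00000052684.4, chromosome 4, 95049034 to 95052222) was at 74.5, 79.2 and 88.6 RPM in controls and at 93.1, 98.0 and 100.2 RPM in knockouts. The groups did not overlap, but control replicate 3 lay nearer to the knockouts than to the lowest control. The means were 80.8 ± 7.19 and 97.1 ± 3.63 RPM (SD, n = 3 each). The log2 fold change was 0.26 ± 0.09 (SE, limma adjusted p = 0.0435). This call was lost when any library other than control replicate 3 was left out, with adjusted p-values of 0.0504 to 0.176. An antisense gene, Junos, overlaps Jun, and strand-specific counting is not stated. The amplicon of Junos had 1 to 12 reads per library.

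Junb encodes a JUN protein with weaker activation that can oppose JUN. The Junb libraries were at 10.4, 12.7 and 11.5 RPM in controls and at 14.6, 15.7 and 12.8 RPM in knockouts. The groups did not overlap, though knockout replicate 3 and control replicate 2 differed by less than 0.1 RPM. The log2 fold change was 0.29 ± 0.14 (SE), larger than that of Jun but with a wider error, and it did not pass (limma adjusted p = 0.149, unadjusted p = 0.0450). The gene Prdx2, on the other strand, overlaps Junb, and its own amplicon did not pass the test (264 ± 15.5 and 253 ± 23.8 RPM, SD, n = 3 each, limma adjusted p = 0.644). Jund, which encodes the JUN protein that is usually expressed without a stimulus, gave 13, 9 and 6 reads in controls and 15, 4 and 6 reads in knockouts. These are means of 0.761 ± 0.321 and 0.774 ± 0.439 RPM (SD, n = 3 each), below the filter, and so few reads leave a difference undecided. The groups overlapped (exact permutation test, two-sided, p = 1). That test cannot decide either, since 0.1 is the smallest value possible for 3 against 3. Over the 6 libraries Jund averaged 0.767 RPM, and Fosb, the member nearest to the filter on its upper side, 2.08 RPM.

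Among the other immediate early factors Ier2 had the greatest change. Ier2 (ENSMUSG00000053560.4, chromosome 8, 84661331 to 84662852) encodes a small nuclear regulator induced by growth factors. It was at 28.2, 26.1 and 21.3 RPM in controls and at 35.1, 29.9 and 41.0 RPM in knockouts. All knockouts lay above all controls, with a wide spread in both groups. The means were 25.2 ± 3.54 and 35.3 ± 5.54 RPM (SD, n = 3 each). The log2 fold change was 0.47 ± 0.13 (SE, limma adjusted p = 0.0134). Without control replicate 3 the adjusted p was 0.0645, and without knockout replicate 3, the highest library, it was 0.0683. Only 2.72% of tested genes had a greater log2 fold change.

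Egr1, a zinc finger factor induced through serum response factor like Fos, was at 94.6, 93.0 and 80.3 RPM in controls and at 97.3, 98.4 and 88.4 RPM in knockouts. The groups overlapped, and replicate 3 was the lowest in each. Its log2 fold change was 0.09 with a 95% interval of -0.10 to 0.27 (limma adjusted p = 0.555). Without control replicate 3, the lowest library, it was 0.01 (adjusted p = 0.949). Atf3, a stress-induced partner of JUN, was at 23.7, 26.8 and 22.7 RPM in controls and at 31.4, 29.7 and 27.1 RPM in knockouts. The groups stood apart by less than 0.3 RPM. Its log2 fold change was 0.26 ± 0.11 (SE, limma adjusted p = 0.117, unadjusted p = 0.0314). It passed under quantile normalization alone (adjusted p = 0.0337), among 17 alternatives that gave adjusted p-values of 0.0337 to 0.277.

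**Figure D2:**
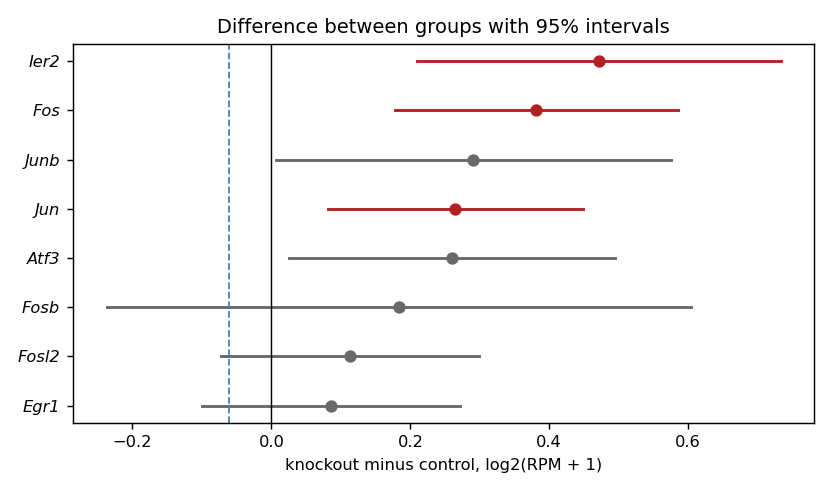
Difference between knockout and control on the log2(RPM + 1) scale (x axis) with its 95% interval for the 8 tested genes (y axis), red where the adjusted p is under 0.05, with the median of all tested genes as a dashed line at -0.06. Ier2, Fos and Jun are red, and the intervals of Fosb, Fosl2 and Egr1 cross 0.

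Among the members, no library was high or low for all of them. Within the knockouts, replicate 3 was the highest library for 4 of the 8 tested members and the lowest for the other 4. It was the highest for Ier2, Jun, Fosb and Fosl2 and the lowest for Fos, Junb, Egr1 and Atf3. Within the controls, replicate 2 was the highest for 4 and the lowest for 0. Summed over the 9 members, controls held 337, 349 and 327 RPM and knockouts 394, 391.9 and 397 RPM.

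Jun, Junb, Jund and Ier2 each have 1 exon in every coding transcript annotated and their amplicons therefore span no splice junction. Of the 265 tested genes with 1 exon 7.17% were higher and 5.28% lower, with a median log2 fold change of -0.02. Among the 11704 with more exons 5.77% were higher and 11.4% lower, with a median of -0.06. The part of exon number in the values of Jun and Ier2 was not tested.

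The 5 genes whose profiles over the 6 libraries were most like the average profile of the tested members were Usp40, Manbal, Rab14, Rbmx and Bbs2. Likeness was the root mean square distance between log2(RPM + 1) profiles centred on their own means, over 9011 candidate genes with a mean of at least 10 RPM. The distance was 0.0160 for Usp40 and 0.0258 for Bbs2. Rab14, for example, went from 201, 214 and 196 RPM in controls to 248, 245 and 241 RPM in knockouts. The likeness is a description over 6 libraries in 2 groups.

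Most other immediate early genes did not pass the test. Of 37 tested genes of this list 1 was higher and 1 was lower, against 5.71% higher and 11.0% lower among all tested genes. The median log2 fold change was -0.01. Csrnp1, a nuclear factor induced by AXIN1, rose from 23.0, 23.9 and 31.2 RPM to 34.7, 38.5 and 48.8 RPM (log2 fold change 0.62 ± 0.13, SE, limma adjusted p = 0.00240). Klf4, a Krüppel-like factor, fell from 65.2, 64.1 and 56.5 RPM to 47.8, 46.3 and 40.6 RPM (log2 fold change -0.46 ± 0.10, SE, adjusted p = 0.00332). The nuclear receptor gene Nr4a1 was at 28.8 ± 3.40 and 28.4 ± 2.97 RPM, the MAP kinase phosphatase gene Dusp1 at 14.9 ± 2.78 and 13.7 ± 1.61 RPM, and Myc at 46.3 ± 6.70 and 51.8 ± 6.39 RPM (SD, n = 3 each). Their groups overlapped, and limma gave adjusted p-values of 0.932, 0.696 and 0.352.

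Of 20 tested partners and relatives of AP-1 2 were higher and 3 lower, where 5.71% of all tested genes were higher and 11.0% lower. The median log2 fold change of the list was -0.17. Jdp2, a dimer partner of JUN that represses AP-1 sites and takes part in osteoclast formation, rose from 80.3, 86.0 and 84.8 RPM to 126, 116 and 94.3 RPM (log2 fold change 0.41, limma adjusted p = 0.00613). Atf1, a CREB relative, rose from 88.1, 90.9 and 96.6 RPM to 117, 114 and 111 RPM (0.31, adjusted p = 0.0130). Creb3l1, which encodes OASIS, a factor that drives collagen I transcription in osteoblasts, fell from 121, 106 and 88.4 RPM to 58.8, 52.6 and 38.5 RPM (-1.07, adjusted p = 4.84e-06). This was the greatest change among the tested genes of the 5 lists described here. Batf2, a BATF relative that pairs with JUN and lay below the filter, had 0, 1 and 0 reads in controls and 10, 8 and 14 reads in knockouts, without overlap and untested in the reported analysis. Nfe2l1 and Nfe2l2, which encode the stress factors NRF1 and NRF2, fell by 0.27 and 0.41 on the log2 scale.

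Genes of the kinases and factors that feed immediate early transcription mostly did not pass the test. Of 25 tested genes 1 was higher and 3 were lower, against 5.71% and 11.0% of all tested genes. Among the lower genes were Mapk3 (log2 fold change -0.34), which encodes the kinase ERK1, and Map2k7 (-0.35), which encodes a kinase that activates JNK. Hras was the higher one, at 0.28. Srf, the serum response factor gene, was at 69.2, 55.1 and 52.5 RPM in controls and at 48.5, 46.8 and 48.9 RPM in knockouts. The Srf groups did not overlap, but the gene did not pass (log2 fold change -0.28, limma adjusted p = 0.0689).

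Genes known as AP-1 targets included higher and lower ones. Of 13 tested genes 3 were higher and 4 lower, where 5.71% of all tested genes were higher and 11.0% lower, and the list's median log2 fold change was 0.02. The protease gene Mmp9 (log2 fold change 0.71), the urokinase gene Plau (0.68) and its receptor gene Plaur (0.59) rose. Plau went from 27.4, 29.5 and 24.1 RPM to 47.3, 40.0 and 44.5 RPM. Mmp13, the collagenase of hypertrophic cartilage and osteoblasts, fell from 603, 618 and 654 RPM to 466, 521 and 446 RPM (-0.39 ± 0.07, SE, limma adjusted p = 0.00112). Timp1 (-0.70), Spp1 (-0.26) and Tgfb1 (-0.34) fell as well.

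**Figure D3:**
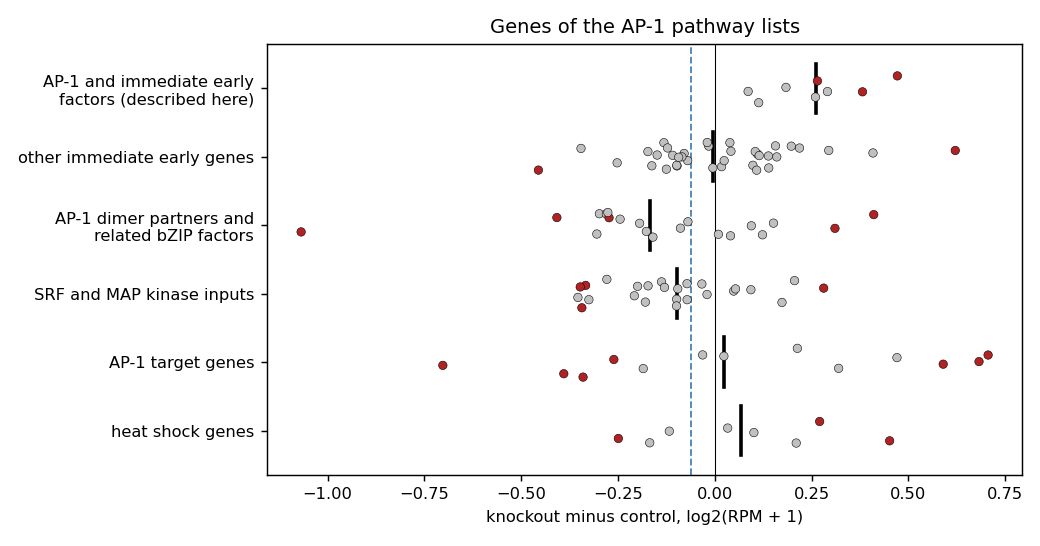
Difference between knockout and control on the log2(RPM + 1) scale (x axis) for each tested gene of the members and of 5 gene lists (y axis, spread vertically for legibility), red where the adjusted p is under 0.05, with a black bar at each list's median and a dashed line at the median of all tested genes. All 8 tested members lie above 0, while each of the other lists has genes on both sides.

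Heat shock genes, which like Atf3 respond to cell stress, were read beside the members. Of the 14 genes listed 9 were matched to a row of the table, and 8 of these were tested. Among the 8, 2 were higher (Hsph1, log2 fold change 0.27, and Hspa4l, 0.45) and 1 lower (Hsp90ab1, -0.25), with a median of 0.07. Over all tested genes the shares were 5.71% and 11.0%. Hspa1a, with 0.204 to 0.762 RPM per library, lay below the filter, and Hspb1 and Hspa8 were not analysed here. Summed over the 9 matched genes, controls held 3863 to 3984 RPM and knockouts 3519 to 3631 RPM. Most of each sum was Hsp90ab1, which went from a mean of 2749 to 2313 RPM, so the sum does not describe the other genes. The part of the heat shock genes in the rise of Fos, Ier2 and Jun was not tested.

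Cell type markers were read beside the members too, and their counts stand beside the 5.71% higher and 11.0% lower of all tested genes. Of 8 tested macrophage markers 4 were higher (Cd68, Adgre1, Cd14 and Lyz2) and 1 lower (Csf1r). Mrc1, C1qb and Fcgr1 had negative log2 fold changes (-0.27, -0.28 and -0.36) without passing, so the list was mixed. It summed to 394 to 419 RPM in controls and 491 to 531 RPM in knockouts. Within the sum, Lyz2 went from a mean of 134 to 230 RPM and Cd68 from 89.7 to 125 RPM. Of 10 osteoclast markers 2 were higher and 1 lower, with sums of 511 to 543 and 562 to 606 RPM. Of 9 osteoblast markers 8 were lower, with sums of 37282 to 40519 and 31895 to 36778 RPM. Most of the osteoblast sum was Col1a1, the marker that did not pass (means of 28711 and 27669 RPM, limma adjusted p = 0.698). The sum therefore does not describe the lower markers. Of 8 chondrocyte markers 5 were lower, with sums of 468 to 488 and 366 to 401 RPM. Of 5 tested neutrophil markers all were lower, and their list summed to 88.4 to 90.1 and 37.4 to 40.8 RPM. Endothelial markers were lower in 2 of 6, with sums of 673 to 719.6 and 662 to 702 RPM. Their list was mixed, since Pecam1 and Kdr had positive log2 fold changes (0.21 and 0.15) without passing. Emcn and Esam (-0.02 and -0.15) did not pass either. Skeletal muscle markers were lower in 3 of 8, with sums of 21565 to 24681 and 19005 to 21061 RPM. Mylpf, which did not pass, made up the largest part of the muscle sum (means of 12626 and 11352 RPM). Erythroid markers were higher in 1 of 5, with sums of 69.97 to 83.6 and 83.7 to 90.8 RPM. Of 3 tested epidermal markers 2 were higher, with sums of 14.8 to 17.0 and 23.3 to 25.7 RPM over 7 genes, of which Dsg3 had no read in any library. No other marker list had a gene without a read. Among the tested epidermal markers Trp63 went from a mean of 11.4 to 9.47 RPM without passing (limma adjusted p = 0.263). The part of these cell types in the rise of the members was not tested.

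Of the 3 calls, that of Fos held in each of the 17 alternative analyses, with adjusted p-values of 7.61e-04 to 0.0436 and log2 fold changes of 0.31 to 0.46. Ier2 lost its call in 4 and Jun in 7, and neither changed direction. Leaving out knockout replicate 3 left Fos as the 1 member called, where 4.85% of all tested genes were called higher. The balance of calls over the whole table moved with the scaling. The deposited scaling gave 733 higher and 1409 lower genes, TMM factors 1042 and 928, median-of-ratios factors 1079 and 881, and quantile normalization 979 and 877. The median of the members was 0.26 with the deposited scaling and 0.32, 0.32 and 0.33 with these 3.

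**Figure D4:**
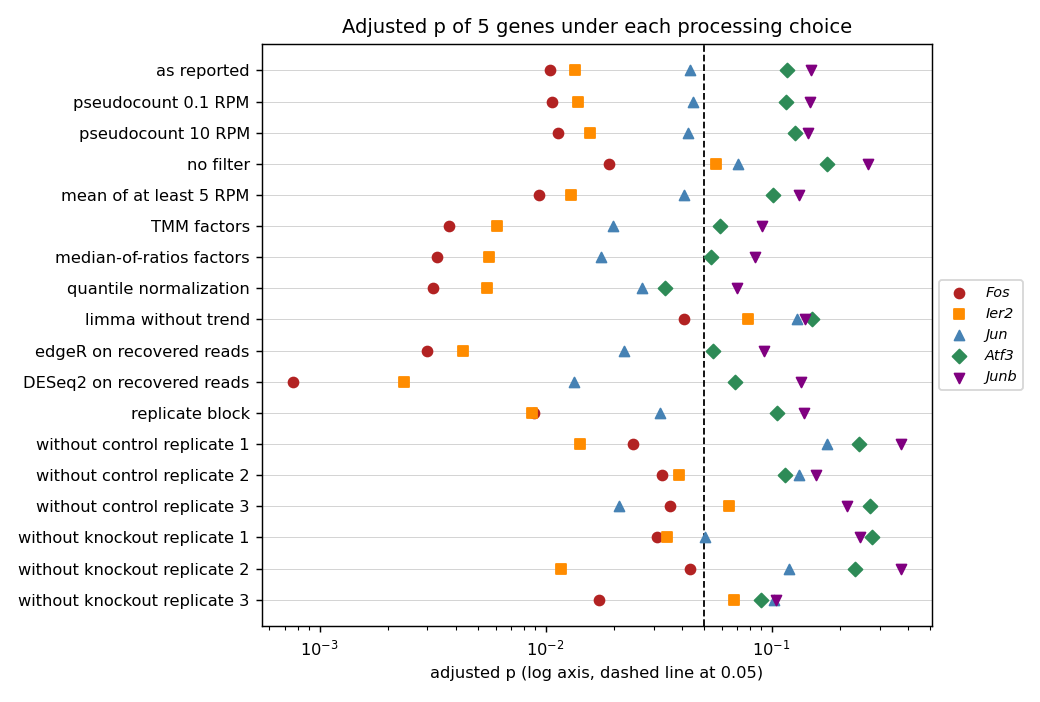
Adjusted p (x axis, log scale, dashed line at 0.05) of Fos, Ier2, Jun, Atf3 and Junb under the reported analysis and 17 alternatives (y axis). Fos lies left of the line throughout, Ier2 and Jun on both sides, Atf3 left of it once and Junb never.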

How the data were processed

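The authors deposited RPM values, the reads of each amplicon divided by the library's total and scaled to 1000000, for the 6 libraries. Per the labels' protocols, Trizol RNA was turned into cDNA with SuperScript VILO, and an Ion AmpliSeq panel for the mouse transcriptome gave the libraries. No aligner, counter or genome build is stated (not given in the sources used here). Dividing by the step of 1 read returned whole reads for 100% of nonzero values (tolerance 0.1 read).

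Groups follow the labels. RPM values of 12846 amplicons (those averaging 1 RPM or more) were compared on the log2(RPM + 1) scale with limma 3.58.1 (R 4.3.3, empirical Bayes with trend), which understates changes of low genes. Two-sided p-values were adjusted by Benjamini-Hochberg over all amplicons tested, with a threshold of 0.05. Recovered reads were tested with edgeR 4.0.16 and DESeq2 1.42.0 as alternatives. The tests were checked on simulated data. Read numbers speak for counting error only, since no molecular identifiers are stated.

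The members and the lists were chosen with earlier results of these data known. Named from each list were its called genes (up to 8 in each direction), and Nr4a1, Dusp1, Myc, Srf, Fosl1, Mmp13 and Hspa1a whatever their result. Hspb1 and Hspa8, named without values, lie outside this rule. So do Junos, Prdx2, Batf2, Ctgf and the cell type markers named, which were named after their values were seen. The search for TGACATCA and TTACCTCA was also added then. A single called gene of the kinase list is not reported here by name.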

Additional observations from a re-analysis of the deposited data

How the results depend on the processing

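The count of members called higher was 3 as reported. It was 1 without a filter on low values (20490 amplicons tested), 1 for limma without a trend, and 1 to 2 when 1 library was left out. Under quantile normalization it was 4. Of all tested genes 5.71% were called higher as reported, 2.55% without a filter and 2.81% without a trend. The share was 7.62% under quantile normalization and 3.44% to 5.49% when 1 library was left out. The adjusted p of Ier2 was 0.0564 without a filter and 0.0789 without a trend, and that of Jun 0.0710 and 0.130. The cause was not tested. The count of members called lower stayed at 0 in all 17 alternatives, and none of the 8 tested members changed direction in any. Among the other immediate early genes 1 was higher as reported, and 2 with TMM factors, with median-of-ratios factors, with edgeR and with the replicate block, since Ctgf joined Csrnp1, and 1 to 2 when 1 library was left out. With TMM factors, median-of-ratios factors, edgeR and the replicate block 6.51% to 8.40% of all tested genes were called higher. Genes called higher in the whole table numbered 733, and 361 without a trend, 481 without control replicate 1, 442 without control replicate 2 and 466 without knockout replicate 2. Libraries sharing a replicate number deviated from their group means with correlations of 0.0126, -0.0193 and 0.107 across genes. With 3 libraries per group these values cannot decide whether the numbers pair the samples. The replicate block left the members' calls at 3 higher and 0 lower. Over the whole table it gave 836 higher and 1626 lower genes, against 733 and 1409 as reported. Low read numbers limit Jund and Fosb, with at most 15 and 27 reads in a library.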
